A study of Mus musculus with 4 samples.

Results

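Cycling mesenchymal cells are described here among Cxcl12CE-tdTomato+ cells sorted from mouse femurs 7 days after marrow ablation. A cell was taken as cycling mesenchymal when at least 3 of the 6 genes Mki67, Top2a, Birc5, Cdk1, Ccnb1 and Cenpf had a UMI. It also needed at least 3 Col1a2 UMIs, at least 1 UMI of Pdgfra or Pdgfrb, no UMI of Ptprc or Pecam1, and less than 5% of its UMIs from 4 haemoglobin genes. Of 9795 cells past the cell filter, 103 met this rule (1.05%), and 97 of the 103 came from ablated femurs. In total, 4790 cells met the mesenchymal conditions alone. The 4045 of these without a UMI of any of the 6 cycle genes served as non-cycling cells of the same libraries.

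All mice carried Cxcl12-iCreER, a tamoxifen-inducible recombinase driven by the regulatory DNA of Cxcl12, and 1 R26R(tdTomato) allele. Tamoxifen was given 7 days before the marrow of 1 femur was mechanically ablated, and tdTomato+ cells were sorted from ablated (ABL) and contralateral (CONT) femurs, whose growth plates had been cut away. Each of 2 biological replicates gave a CONT and an ABL library, made with Chromium v2 (replicate 1, cells pooled from several mice) or v3 (replicate 2) chemistry. Strain, sex and age are not given in the labels. The transgene marks reticular cells next to sinusoids, and the origin of sorted cells of another kind cannot be told from these data.

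Reticular cells of the marrow hold stem and progenitor cells of the blood through CXCL12 and stem cell factor, carry the leptin receptor, and are close to adipocytes in the genes they use. They seldom divide in the intact marrow. After ablation, the emptied cavity fills with woven bone made by mesenchymal cells, and dividing cells are then found. A cell that enters the cycle first makes the replication machinery under E2F factors and later the proteins of mitosis, many of whose genes carry CCAAT boxes, bound by NF-Y, and a cell cycle homology region (CHR), bound by the DREAM and MuvB complexes, in their promoters.

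The promoters of 4 of the 6 genes of the rule are shown because the rule rests on these genes and these 4 carry both motifs. Sequences are those of RefSeq on GRCm38.p6, 300 bases from 250 before to 50 after the start of the gene, 5′ to 3′ on the strand of the gene. Mki67 lies at chr7:135716330-135716629 (minus strand), Top2a at chr11:99024140-99024439 (minus), Cdk1 at chr10:69352863-69353162 (minus) and Cenpf at chr1:189688037-189688336 (minus). Capitals mark CCAAT boxes (CCAAT, or ATTGG on the other strand) and the CHR (TTTGAA, or TTCAAA on the other strand). The replication gene Mcm6, at chr1:128359656-128359955 (minus), is shown for contrast. Its E2F sites are in capitals (TTTGGCGC or TTTCGCGC, or GCGCCAAA or GCGCGAAA on the other strand, which may overlap). The 2 CCAAT boxes of Mcm6 and the 1 E2F site of Cdk1 are left in lower case.
Mki67: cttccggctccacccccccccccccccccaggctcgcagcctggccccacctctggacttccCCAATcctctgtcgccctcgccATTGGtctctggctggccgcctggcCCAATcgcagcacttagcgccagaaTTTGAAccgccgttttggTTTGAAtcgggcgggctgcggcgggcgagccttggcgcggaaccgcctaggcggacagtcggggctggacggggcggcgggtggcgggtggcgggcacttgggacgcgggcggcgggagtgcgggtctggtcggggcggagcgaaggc
Top2a: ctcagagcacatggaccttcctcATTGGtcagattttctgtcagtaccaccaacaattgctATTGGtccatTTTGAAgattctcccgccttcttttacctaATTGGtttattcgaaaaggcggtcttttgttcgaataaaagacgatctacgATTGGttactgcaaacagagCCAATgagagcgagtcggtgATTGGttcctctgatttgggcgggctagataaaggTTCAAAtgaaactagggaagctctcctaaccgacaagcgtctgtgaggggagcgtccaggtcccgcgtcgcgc
Cdk1: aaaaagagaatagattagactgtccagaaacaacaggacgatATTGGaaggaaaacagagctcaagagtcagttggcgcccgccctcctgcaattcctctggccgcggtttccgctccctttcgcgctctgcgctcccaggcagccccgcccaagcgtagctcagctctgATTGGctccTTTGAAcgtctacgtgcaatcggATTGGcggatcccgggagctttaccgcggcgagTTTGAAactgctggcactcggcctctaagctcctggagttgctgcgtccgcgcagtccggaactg
Cenpf: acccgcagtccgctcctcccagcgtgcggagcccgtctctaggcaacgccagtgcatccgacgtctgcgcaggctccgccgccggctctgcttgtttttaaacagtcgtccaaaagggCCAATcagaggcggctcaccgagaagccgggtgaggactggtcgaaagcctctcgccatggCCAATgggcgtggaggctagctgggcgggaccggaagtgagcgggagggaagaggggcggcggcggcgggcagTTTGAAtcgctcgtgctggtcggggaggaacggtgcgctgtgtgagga
Mcm6: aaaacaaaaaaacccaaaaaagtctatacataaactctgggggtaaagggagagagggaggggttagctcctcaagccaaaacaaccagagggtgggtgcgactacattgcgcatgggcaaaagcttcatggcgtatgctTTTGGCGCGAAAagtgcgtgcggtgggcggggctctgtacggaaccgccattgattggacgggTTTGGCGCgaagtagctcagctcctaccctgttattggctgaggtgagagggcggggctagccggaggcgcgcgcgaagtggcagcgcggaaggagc

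Of the 6 promoters of the rule, 5 held a CCAAT box and 4 held a CHR as well. That of Ccnb1 held 2 CCAAT boxes and no CHR, and that of Birc5 held neither. In a wider list of 36 mitosis genes, 29 matched the table with 31 promoters, of which 25 (80.6%) held a CHR and 24 (77.4%) a CCAAT box. Among all 32851 mouse promoters of the same length, 17.9% held a CHR and 37.4% a CCAAT box. In a list of 30 replication genes, 24 matched with 29 promoters, and 3 of these (10.3%) held a CHR and 16 (55.2%) a CCAAT box. An E2F site was held by 9 (31.0%), against 0.813% of all promoters. Of the 6 promoters of the rule, 1 held an E2F site, that of Cdk1. A match of letters is a description of the window and not a bound site.

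Cycling cells made up 3.68% (95% exact binomial interval 2.26 to 5.62) of mesenchymal cells in ABL replicate 1 (20 of 544) and 5.20% (4.12 to 6.46) in ABL replicate 2 (77 of 1481). In the contralateral femurs they made up 0.439% (0.120 to 1.12) in replicate 1 (4 of 912) and 0.108% (0.0131 to 0.389) in replicate 2 (2 of 1853). Both ABL libraries lay above both CONT libraries. The means were 4.44% and 0.273%, a difference of 4.16 percentage points, and the exact permutation test over libraries (two-sided) gave p = 0.33, the smallest value that 2 against 2 libraries allow. Intervals throughout cover counting error only. The labels name the replicates as separate samples, so these shares vary over 2 animals or pools per condition.

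**Figure D1:**
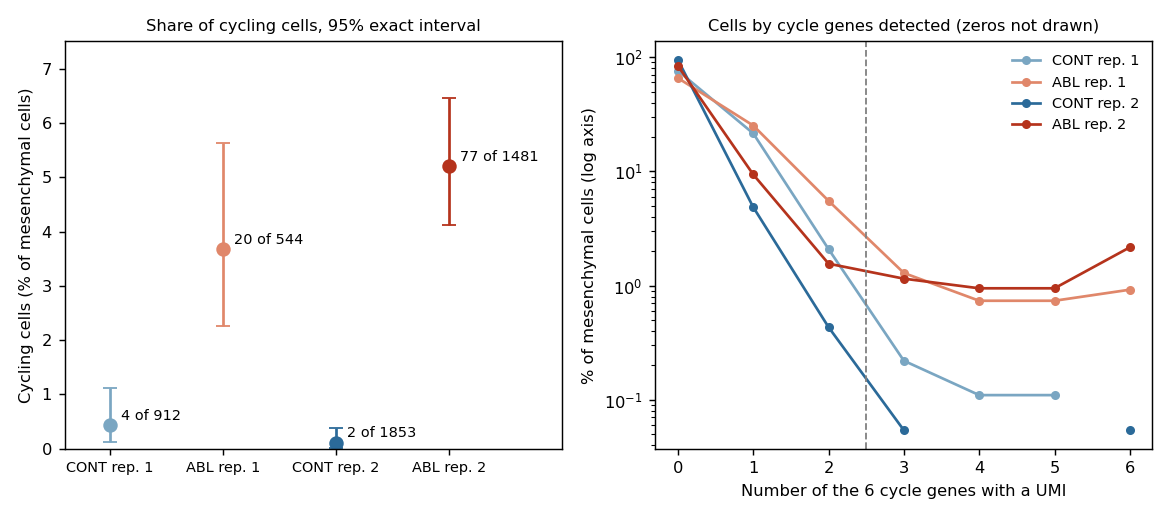
Left, share of cycling cells among mesenchymal cells (%) in each library with its 95% exact binomial interval. Right, share of mesenchymal cells (%, log axis) by the number of the 6 cycle genes with a UMI, with the rule's threshold as a dashed line. Both ABL libraries (3.68% and 5.20%) lie above both CONT libraries (0.439% and 0.108%), and ABL replicate 2 has more cells with all 6 genes (32) than with 3 (17).

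The distribution of cycle genes separated the libraries beyond the threshold. In ABL replicate 2, 17, 14, 14 and 32 cells had 3, 4, 5 and 6 of the 6 genes, and 23 had 2. The numbers in ABL replicate 1 were 7, 4, 4 and 5, with 30 cells at 2. Just outside the rule, cells with 2 of the 6 genes had 526 and 849 UMIs of the mitosis list per 1000000 UMIs (CPM) in the ablated femurs, whereas cells with 3 of 6 had 1898 and 1837 CPM. In the contralateral femurs, only 1 cell had all 6 genes.

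Libraries differed in depth. They held between 22889380 and 44784072 UMIs and between 1438 and 3419 cells. Cycling cells had a median of 18040 UMIs in ABL replicate 1 and 22137 in ABL replicate 2, whereas non-cycling cells had 6824 and 12021. A deeper cell shows more of the 6 genes, so depth is tied to the rule, and lineage results are also given against a deep counterpart, that is, non-cycling cells with at least the lower quartile of the cycling cells' UMIs in their library (36 and 263 cells). Medians of mitochondrial UMIs were 3.10% and 4.36% in cycling and 4.08% and 5.22% in non-cycling cells. Libraries of the same chemistry shared 5 cell barcodes in replicate 1 and 1 in replicate 2.

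The replicates also differed in sex-linked RNA. Xist, made by the inactive X chromosome, was at 0.123 CPM in non-cycling cells of ABL replicate 2 and between 538 and 834 CPM in the other 3 libraries. The contralateral femur of that replicate is among those 3, so the pairing of its femurs by animal is in doubt. The Y-linked gene Ddx3y was at 56.8 and 37.3 CPM in non-cycling cells of CONT replicates 1 and 2. In those of ABL replicates 1 and 2 it was at 11.9 and 65.2 CPM. RNA of both Xist and Ddx3y was thus present in the other 3 libraries.

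Cell cycle genes define the cells and are given as levels without a test. Mki67 (7:135689784-135716361 on GRCm38, minus strand), which coats mitotic chromosomes, was at 153 CPM in ABL replicate 1 and 291 CPM in ABL replicate 2. Top2a, the topoisomerase that untangles replicated DNA, was at 288 and 349 CPM. Birc5 and Cenpf, which act at the centromere, were at 285 and 330 CPM and at 127 and 330 CPM. Cdk1, the kinase that starts mitosis, was at 207 and 224 CPM, and its partner Ccnb1 was at 85.6 and 139 CPM. All 6 were higher in ABL replicate 2, the library made with v3 chemistry.

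The mitosis list, which the rule did not use, summed to 5049 CPM in cycling and 416 CPM in non-cycling cells of ABL replicate 1. The same sums were 5685 and 362 CPM in ABL replicate 2. The replication list summed to 2414 and 318 CPM in ABL replicate 1 and to 1509.7 and 212 CPM in ABL replicate 2. Most cells were richer in mitosis than in replication RNA. Replication RNA exceeded mitosis RNA in 6 of 20 cells of ABL replicate 1, 16 of 77 of ABL replicate 2 and none of the 6 contralateral cells. As the rule asks for late cycle genes, cells early in replication are under-counted by its construction.

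**Figure D2:**
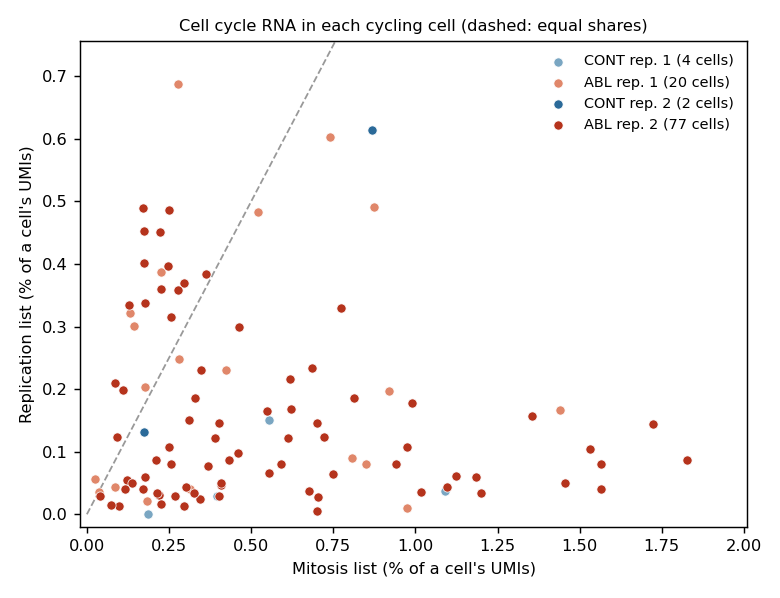
Share of each cycling cell's UMIs (%) from the mitosis list (x axis) and from the replication list (y axis), coloured by library, with a dashed line where both are equal. Of the 103 cells, 6 in ABL replicate 1 and 16 in ABL replicate 2 lie above the line, and mitosis RNA reaches 1.83% of a cell's UMIs in ABL replicate 2.

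Genes outside the cycle lists at 50 CPM or more on average were ranked by their rise. Most of the 10 highest above non-cycling cells are known to follow cell division. They were 2810417H13Rik (Pclaf, a partner of the PCNA clamp), the histone genes Hist1h2ap, Hist1h2ak and Hist1h2ae, the kinetochore genes Spc24 and Knstrn, the condensin Smc2, the lamin Lmnb1, the tubulin regulator Stmn1 and Lockd, a non-coding RNA next to Cdkn1b. Hist1h2ap was at 1937 and 654 CPM in cycling cells of ABL replicates 1 and 2, against 11.2 and 11.7 CPM in non-cycling cells. They move with the genes of the rule and are not used further.

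The lineage genes were not used by the rule, other than Col1a2, Pdgfra and Pdgfrb, and were tested between cycling and non-cycling cells of the ablated femurs. UMIs were summed over cells per library, and the 4 sums were compared with edgeR's quasi-likelihood test with the library as a block and Benjamini-Hochberg adjustment over 10577 genes. At an adjusted p under 0.05, 694 genes (6.56%) were called, 395 higher (3.73%) and 299 lower (2.83%) in cycling cells, and the median log2 fold change over all genes tested was -0.04. The contralateral femurs, with 4 and 2 cycling cells, were not in this test. With 1 residual degree of freedom per gene, the test borrows spread from the other genes tested, and it covers these 2 libraries only.

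The reticular genes were lower in cycling cells. Of 12 genes on the list, 10 fell, none rose and Foxc1 and Lpl were not called, with a median log2 fold change of -2.45. For cells with at least 2 of the 6 cycle genes the median was -1.01 and none of the 12 was called. Cxcl12 (6:117168535-117181367, plus strand), the chemokine that gives the driver its name, was at 1136 CPM in cycling and 10874 CPM in non-cycling cells of ABL replicate 1, and at 306 and 2234 CPM in those of ABL replicate 2. Both libraries thus had several times less Cxcl12 in cycling cells, and the log2 fold change was -3.11 (SE 0.32, edgeR adjusted p = 0.00208).

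Adiponectin (Adipoq), a hormone of the adipocyte lineage, was at 62.2 against 1352 CPM in ABL replicate 1 and at 31.2 against 275 CPM in ABL replicate 2 (log2 fold change -3.80, SE 0.38, edgeR adjusted p = 0.00173). Lepr, the leptin receptor, was at 122 against 529.8 CPM and at 5.20 against 96.0 CPM (-2.97, SE 0.50, edgeR adjusted p = 0.0127). Esm1, which encodes the proteoglycan endocan, had the largest log2 fold change of the list (-4.70), and Gas6, a ligand of TAM receptors, fell as well (-3.27). Kitl, the stem cell factor (-1.85), and the transcription factors Ebf3 (-1.79) and Ebf1 (-1.19), which keep reticular identity, fell less.

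Part of this fall was shared with deep non-cycling cells. Against the deep counterpart, 5 of the 12 genes were still lower, and the median of the list was -0.71. That fit tested 8692 genes (1687 with an unadjusted edgeR p under 0.05), and its share of genes called lower is not given here. Cxcl12 remained lower (-1.36, edgeR adjusted p = 0.0358), as did Adipoq (-2.02, adjusted p = 0.0194) and Esm1 (-3.50). Lepr (-0.87, adjusted p = 0.114), Kitl (-0.09), Hp (-0.45) and Ebf1 (-0.54) were no longer called, and Ebf3 turned to 0.20. The summed list moved from a log2 ratio of -2.99 to -2.36 in ABL replicate 1 and from -1.86 to 0.14 in ABL replicate 2. The libraries thus disagree on it against deep cells. The deep counterpart sets a lower limit on UMIs and does not match depth.

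The same was seen cell by cell. After every cell was thinned to 2700 UMIs, a UMI of Adipoq or Lepr was found in 3 of 77 cycling cells of ABL replicate 2 (3.90%, interval 0.811 to 11), in 24.5% of non-cycling cells and in 3.8% of the deep ones. It was found in ABL replicate 1 in 4 of 20 cycling cells (20%), 80.4% of non-cycling cells and 52.8% of deep ones. Hematopoietic cells of ABL replicate 1, which should lack both genes, had such a UMI in 31.4% (11 of 35), so the share in its cycling cells is at the level of free RNA. In ABL replicate 2 none of 283 hematopoietic cells had one, which allows a share of up to 1.06%. Without thinning, Adipoq itself had a UMI in 11 of 20 and 6 of 77 cycling cells.

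A Cxcl12 UMI alone does not mark expression. All 20 cycling cells of ABL replicate 1 and 43 of 77 of ABL replicate 2 had a Cxcl12 UMI, and 1 cell of ABL replicate 1 held 46.8% of that library's Cxcl12 UMIs in cycling cells. In droplets with at most 300 UMIs, which hold free RNA, the reticular list was at 11047 and 4638 CPM in the ablated libraries, above the 2715 and 1526 CPM of their cycling cells.

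**Figure D3:**
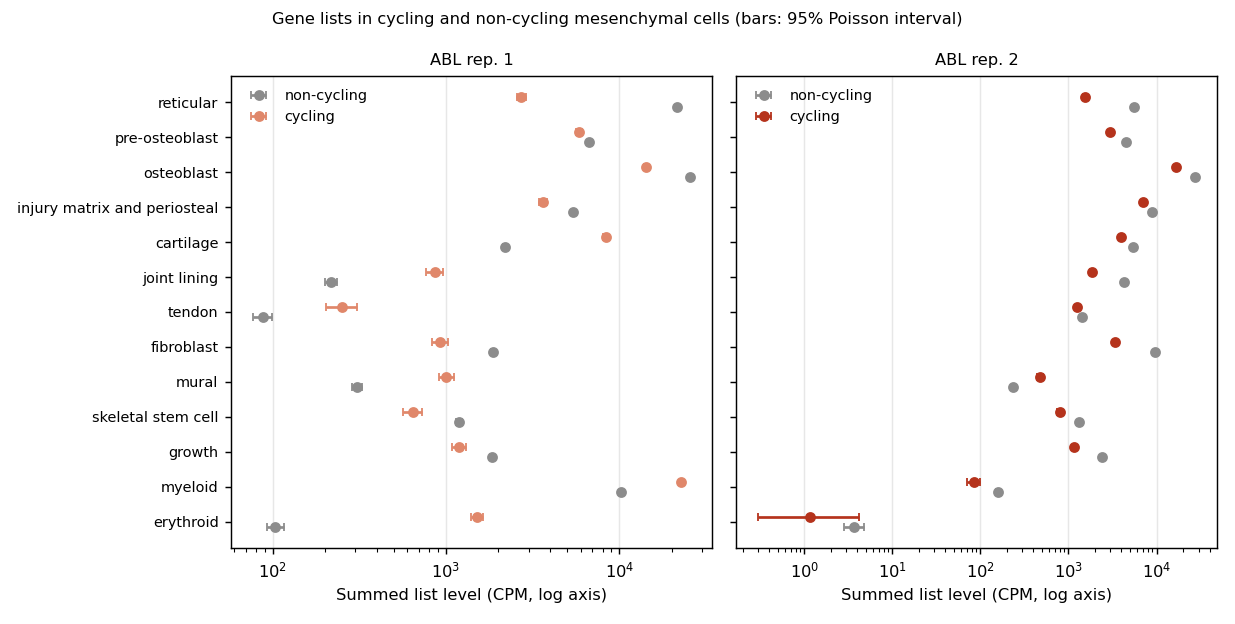
Summed level of each gene list (CPM, log axis) in cycling (coloured) and non-cycling (grey) mesenchymal cells of ABL replicate 1 (left) and ABL replicate 2 (right), with 95% exact Poisson intervals. The reticular list is lower in cycling cells of both libraries (2715 against 21521 and 1526 against 5528 CPM), whereas the cartilage list is higher in replicate 1 (8360.4 against 2181) and lower in replicate 2 (3913 against 5399).

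Genes of bone formation were lower or not called. Among 10 osteoblast genes, Ifitm5, a membrane protein of mineralizing osteoblasts (-2.38, SE 0.45, edgeR adjusted p = 0.0204), and the citrate transporter Slc13a5 (-3.45, adjusted p = 0.0493) fell, none rose, and the median log2 fold change was -2.08. Osteocalcin (Bglap), the late marker of the osteoblast, was at 926 against 5286 CPM in ABL replicate 1 and at 5.20 against 1819 CPM in ABL replicate 2. Both libraries were lower in cycling cells, but by unequal amounts, and the test did not call it (-4.98, SE 1.35, adjusted p = 0.0775). Its neighbour Bglap3 was called (-3.27, adjusted p = 0.0382), although reads of the near-identical osteocalcin genes can be split among them.

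The collagen chain Col1a1 was at 10111 against 14712 CPM and at 16191 against 22386 CPM and was not called (-0.55, adjusted p = 0.389). Bone sialoprotein (Ibsp) was at 2313 against 2726 CPM in ABL replicate 1 and at 230.4 against 2191 CPM in ABL replicate 2. All 10 osteoblast genes were lower against the deep counterpart (median -2.88), and none was called after cells with blood RNA were left out. The share of all genes called lower in the fit against deep cells is not given here, so this count cannot be set beside it. At 2700 UMIs, at least 2 UMIs of Ifitm5 and Ibsp were found in 12 of 20 cycling cells of ABL replicate 1 (60.0%, against 73.4% of non-cycling cells) and in 6 of 77 of ABL replicate 2 (7.79%, against 32.0%). Hematopoietic cells had them in 8.57% and 0.353%.

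Genes of earlier steps of the lineage had a median log2 fold change of -0.96, and its difference from that of the osteoblast genes was not tested. Of 10 pre-osteoblast genes, Mmp13, a collagenase (-1.49), and Limch1 (-1.70) fell and none rose. The transcription factor Runx2 was at 114 against 185 CPM and at 37.5 against 65.9 CPM, and Sp7, which acts after it, at 51.9 against 72.6 and 4.62 against 22.5 CPM. Neither was called (adjusted p = 0.136 and 0.157). Osteopontin (Spp1) was at 3444 against 2610.1 CPM and at 2204 against 2509 CPM, and its groups did not keep the same order. Without the 1 cell richest in it, ABL replicate 1 was at 2115 CPM and ABL replicate 2 at 2072 CPM, both below non-cycling cells.

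Genes of the injury matrix lay on both sides of their non-cycling levels and few were called. Of 12 genes, none rose, and Ogn (-1.78) and Mfap4 (-4.58) fell. Tenascin-W (Tnn, 1:160085029-160153580, minus strand), a matrix protein of periosteum and healing bone, was at 62.2 against 24.2 CPM in ABL replicate 1 and at 520.4 against 324 CPM in ABL replicate 2. Both libraries were higher in cycling cells, but the test did not call it (log2 fold change 0.88, SE 0.32, edgeR adjusted p = 0.162). Without the 1 cell richest in Tnn, cycling cells of ABL replicate 1 were at 11.2 CPM, below its non-cycling cells. Periostin (Postn) was at 477 against 215 CPM and at 1071 against 784 CPM (0.74, adjusted p = 0.243), and Cthrc1 at 166 against 136 and 751 against 748 CPM. Lower values that were not called were those of Aspn, at 75.2 against 159 and 628 against 1119 CPM (adjusted p = 0.0881), and tenascin-C (Tnc), at 1074 against 2086 and 516 against 698 CPM (-0.74). Col8a1 was at 350.1 against 1133 and 206 against 196 CPM, and fibronectin (Fn1) at 1185 against 948 and 2680 against 4204 CPM.

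A Tnn UMI was found in 45 of 77 cycling cells of ABL replicate 2 and in 3 of 20 of ABL replicate 1, where 1 cell held 83.3% of the UMIs. At 2700 UMIs the share in ABL replicate 2 was 40.3% (29.2 to 52.1), against 30.0% of all non-cycling and 46.0% of deep non-cycling cells, and none of 283 hematopoietic cells had one.

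Cartilage genes were not called in either direction. Of 15 genes tested, none passed, with a median log2 fold change of 0.71. Aggrecan (Acan, 7:79053483-79115099, plus strand), the large proteoglycan of cartilage, was at 316 against 68.1 CPM in ABL replicate 1 and at 584 against 384 CPM in ABL replicate 2 (1.32, SE 0.43, adjusted p = 0.133). Type II collagen (Col2a1) was at 4541 against 846 CPM and at 1368 against 1117 CPM. Single cells carried most of this. In ABL replicate 1, 1 cell held 95.9% of the Acan and 96.4% of the Col2a1 UMIs, and without it Acan was at 13.8 CPM and Col2a1 at 174 CPM. In ABL replicate 2, 1 cell held 66.1% of the Col2a1 UMIs but only 8.80% of the Acan UMIs, and 41 of 77 cells had an Acan UMI.

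Of these 41 cells, 39 also had a Tnn UMI. At 2700 UMIs, at least 2 UMIs of Acan, Col2a1 and Col9a1 were found in 23 of 77 cycling cells of ABL replicate 2 (29.9%), 17.6% of non-cycling and 33.1% of deep cells, and in 1 of 283 hematopoietic cells (0.353%). In droplets with at most 300 UMIs of that library the cartilage list was at 6608 CPM, above the 3913 CPM of its cycling cells. Against the deep counterpart, 5 of the 15 cartilage genes tested were lower and none was higher. The share of all genes called lower in that fit is not given here, so 5 of 15 cannot be set beside it.

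Fibroblast genes fell. Of 8 fibroblast genes, 6 were lower and none higher, with a median of -1.91. Clec3b, a plasminogen-binding lectin, was at 10.4 against 43.2 CPM in ABL replicate 1 and at 107 against 664 CPM in ABL replicate 2 (-2.61, SE 0.34, edgeR adjusted p = 0.00476). Cd34, Ly6a, Mfap5, Gsn and Pi16 were the others (-2.62, -1.70, -2.11, -1.42 and -5.30). All 4 Clec3b UMIs of ABL replicate 1 came from 1 cycling cell. Cd34 is also a marker of blood progenitors, and its level of 0 and 15 CPM in cycling cells was below the 11.2 and 78.5 CPM of non-cycling cells.

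Joint lining and tendon genes were mixed. Lubricin (Prg4), the lubricant of joint surfaces, was at 752 against 169 CPM in ABL replicate 1, where 1 cell held 99.3% of the UMIs, and at 1724 against 3779 CPM in ABL replicate 2. It was not called (0.43, adjusted p = 0.819), whereas Cilp (-3.26), Clic5 (-4.25) and Cd55 (-2.21) of the same list fell. Of 5 tendon genes, Thbs4 (-2.14) and Kera (-2.90) fell. Kera had no UMI in cycling or non-cycling cells of ABL replicate 1, so its call rests on ABL replicate 2. Thbs4, Clic5 and Cd55 were near the floor in ABL replicate 1, at 0 against 3.51, 5.19 against 6.67 and 5.19 against 10.9 CPM. Their falls thus also rest mainly on ABL replicate 2. The fibril proteoglycan Fmod was at 246 against 68.1 and 1077 against 987 CPM and the tendon factor Scx at 2.59 against 3.86 and 102 against 63.7 CPM, and neither was called.

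Among 6 genes of mural cells, which wrap vessels, Acta2 was higher and none fell. Acta2, smooth muscle actin, which is also made by activated mesenchymal cells, was at 163 against 59.6 CPM in ABL replicate 1 and at 233 against 70.4 CPM in ABL replicate 2 (1.55, SE 0.26, edgeR adjusted p = 0.0129). Without the 1 cell richest in it, ABL replicate 1 was at 59.3 CPM and ABL replicate 2 at 155 CPM, so the difference in replicate 1 came from that cell. The pericyte gene Rgs5 was at 604 against 57.9 CPM in ABL replicate 1, where 1 cell held 99.6% of it, and at 14.4 against 33.4 CPM in ABL replicate 2.

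Of 10 genes used as skeletal stem cell markers, Nes rose (2.79, adjusted p = 0.0255) and Grem1 (-2.67), Thy1 (-2.31) and Cd200 (-1.22) fell. Nestin (Nes) was low, at 7.78 against 2.46 CPM and at 26 against 2.65 CPM, with a UMI in 3 of 20 and 22 of 77 cycling cells. Prrx1, a factor of limb mesenchyme, was at 122 against 185 and 281 against 315 CPM and was not called.

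Among secreted regulators, the Wnt antagonist Sfrp4 was at 109 against 629 CPM in ABL replicate 1 and at 47.9 against 389.8 CPM in ABL replicate 2 (-2.84, SE 0.31, edgeR adjusted p = 0.00237). It was the only 1 of 10 Wnt genes called, and Ctnnb1, which encodes β-catenin, was at 244 against 238 and 214 against 208 CPM. Of 11 growth factor genes, Igf1 (-2.19), Igf2 (-1.58), Bmp4 (-2.82) and Fgfr2 (-1.34) fell and none rose. Igf1, a growth factor of bone, was at 67.4 against 305 CPM and at 199.8 against 854 CPM. Sfrp4, Igf1 and Bmp4 were still lower against the deep counterpart (-2.24, -1.90 and -2.50), whereas Igf2 (-0.07) and Fgfr2 (-0.65) were not called.

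Falls outside the cycle lists were also ranked, among genes at 50 CPM or more on average. The 10 largest were those of Apod, Esm1, Gdpd2, Adipoq, Ackr4, Mmp3, C4b, Clu, Gas6 and Bglap3. Apolipoprotein D (Apod), a lipid carrier that rises in growth-arrested fibroblasts, was at 5.19 against 89.8 CPM in ABL replicate 1 and at 12.1 against 318 CPM in ABL replicate 2 (-4.71, SE 0.38, edgeR adjusted p = 0.000878). Complement C4b (-3.33) and the chaperone clusterin (Clu, -3.31) were among them. Mmp3 was at 0 against 4.21 CPM in ABL replicate 1 and at 42.7 against 396 CPM in ABL replicate 2, so its fall rests mainly on ABL replicate 2. All 10 were still lower against the deep counterpart, at -2.02 (Adipoq and Gdpd2) to -4.91 (Bglap3). This fit uses the same cycling cells by which the 10 were ranked, and deep cells are part of the non-cycling cells. It is thus not an independent check, and the share of all genes called lower in it is not given here.

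**Figure D4:**
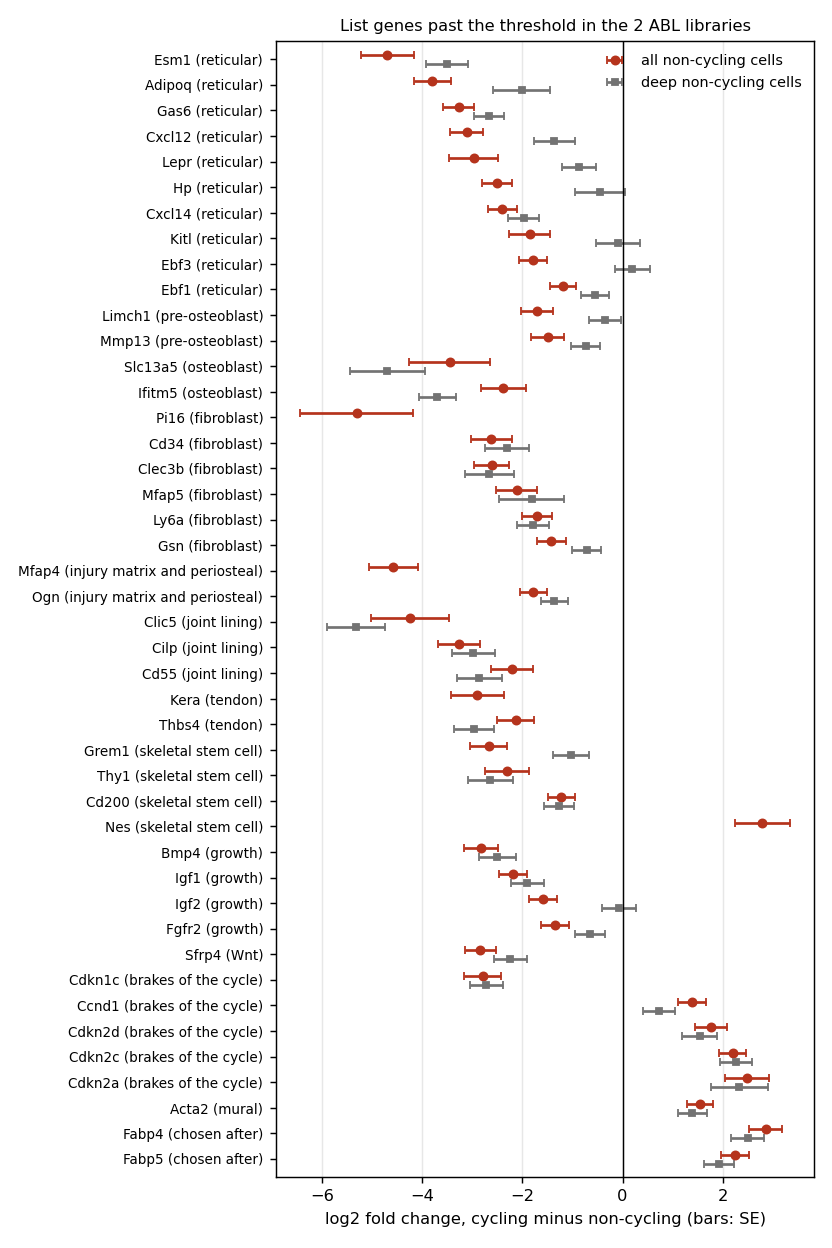
Log2 fold change (cycling minus non-cycling, bars: SE) of the list genes past the threshold in the 2 ABL libraries, against all non-cycling cells (red circles) and deep non-cycling cells (grey squares, where tested). Fabp4 and Fabp5 at the bottom were added after their values were seen. Reticular genes such as Lepr, Kitl and Ebf3 move towards 0 against deep cells, whereas Cdkn1c, Sfrp4 and Cdkn2c keep their values.

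Genes that restrain or license the cycle moved in both directions. None of the 16 genes was used by the rule, but they act in the cycle by which the cells were chosen. Their calls may follow from that choice. Of the 16, 4 rose and 1 fell, with a median of -0.41. The 1 that fell was Cdkn1c (7:143458339-143461050, minus strand), which encodes the inhibitor p57 of resting cells. It was at 33.7 against 148 CPM in ABL replicate 1 and at 18.5 against 163 CPM in ABL replicate 2, far apart in both libraries (-2.79, SE 0.37, edgeR adjusted p = 0.00481). A Cdkn1c UMI was found in 6 of 20 and 17 of 77 cycling cells and in 49.6% and 58.5% of the shallower non-cycling cells. Against deep cells the difference was -2.72.

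Of the 4 inhibitors of the cyclin D kinases, 3 rose. Cdkn2c (4:109660876-109667189, minus strand), which encodes p18, was at 104 against 24.9 CPM and at 117 against 22.0 CPM (2.20, SE 0.27, edgeR adjusted p = 0.00348). Cdkn2d, which encodes p19 (1.77), and Cdkn2a, which encodes p16 and Arf (2.48), rose as well. Cdkn2a was at 25.9 against 4.56 CPM and at 23.1 against 3.82 CPM, with a UMI in 6 of 20 and 23 of 77 cycling cells, so most cycling cells showed none. Cdkn2b, which encodes p15, was at 7.78 against 1.05 CPM and at 5.20 against 4.5 CPM and was not called (0.71, adjusted p = 0.663). Ccnd1, the cyclin itself, rose by 1.38 (adjusted p = 0.0271) and was no longer called against deep cells (0.73, adjusted p = 0.190). Cdkn1a (p21, 239 against 381 and 193 against 235 CPM), Cdkn1b (p27) and Trp53 were not called (adjusted p = 0.303, 0.452 and 0.284).

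Fabp4 and Fabp5, fatty acid carriers of adipocytes, macrophages and some endothelial cells, were chosen after their values were seen. Fabp4 (3:10204088-10208576, minus strand) was at 1068 against 104 CPM in ABL replicate 2, where 1 cell held 901 of 1850 UMIs and the level without it was 555 CPM. In ABL replicate 1 it was at 163 against 31.9 CPM, and at 29.6 CPM without the 1 cell that held 52 of 63 UMIs. The fit gave 2.86 (SE 0.33, edgeR adjusted p = 0.00283), and replicate 1 contributed through that cell. Fabp5 was spread over more cells. It was at 223 against 39.3 CPM and at 423 against 97.1 CPM (2.24, adjusted p = 0.00417), with a UMI in 17 of 20 and 61 of 77 cycling cells, and stood at 179 and 327 CPM without the richest cell.

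The cycling cells of ABL replicate 2 were also split by Fabp4 and the matrix genes Tnn, Acan and Fmod, with limits set after the values were seen and made to exclude each other. At least 5 Fabp4 UMIs were found in 21 of the 77 cells, and 13 of these (16.9% of all) had at most 1 UMI of the 3 matrix genes together, while the rest of the 21 carried both. In 38 cells (49.4%) Tnn, Acan and Fmod summed to at least 10 and Fabp4 was under 5, and 26 cells met neither description. In non-cycling cells of that library these numbers were 32 (2.58%), 461 (37.1%) and 749. There were 2, 2 and 16 such cycling cells in ABL replicate 1, and in the contralateral femurs all 6 cycling cells met neither. As the limits came from these values, the shares are given without a test.

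**Figure D5:**
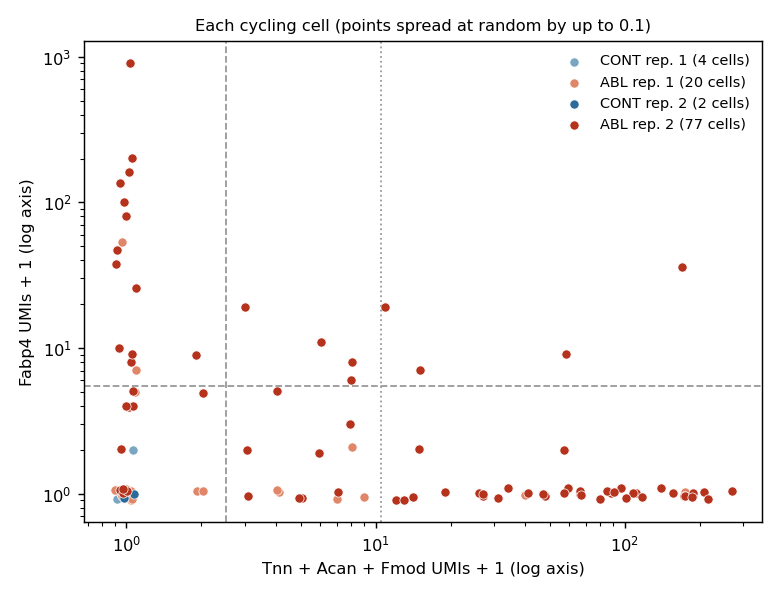
UMIs of Fabp4 (y axis) against UMIs of Tnn, Acan and Fmod together (x axis) in each of the 103 cycling cells, both plus 1 on log axes, coloured by library and spread at random for visibility. Dashed lines mark the limits of the 13 Fabp4 cells of ABL replicate 2 at the upper left, and the dotted line marks the limit of its 38 matrix cells along the bottom right.

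Of other genes of the adipocyte lineage, Lpl, the lipoprotein lipase, was at 2129 CPM and had a UMI in all 13 Fabp4 cells. The master regulator Pparg was at 54.2 CPM with a UMI in 8 of them, and the fatty acid receptor Cd36 at 115 CPM with a UMI in 7. Single cells carried most of the rest. Adipoq was at 166 CPM, with 39 of 52 UMIs in 1 cell and a UMI in 5, and was at 44.5 CPM without that cell. Car3 was at 577 CPM, 98.3% of it in 1 cell, and the droplet protein Plin1 at 47.8 CPM, 73.3% of it in 1 cell. In the 38 matrix cells Lpl was at 5.22 and Car3 at 12.5 CPM, and the other 4 had no UMI. Cxcl12 was at 519 CPM in the Fabp4 cells (297 CPM without the richest) and 13.6 CPM in the matrix cells, and at 6329 CPM in the 32 non-cycling Fabp4 cells. Cycling Fabp4 cells thus had less Cxcl12 and less Adipoq (166 against 1188 CPM) than non-cycling cells chosen in the same way, with medians of 22130 and 11959 UMIs.

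The 38 matrix cells carried Col1a1 at 23709.6 CPM, Fmod at 1735 CPM, Comp at 1436 CPM, Acan at 1021 CPM, Tnn at 868 CPM and Col2a1 at 2428 CPM. Of the Col2a1 UMIs of all 77 cycling cells of that library, 66.1% were in 1 cell. The level of the matrix cells without that cell is not given here. In the Fabp4 cells Col1a1 was at 1982 CPM. Levels of Tnn, Acan and Fmod follow from the limits. The reporter did not separate them, since tdTomato was at 1119 CPM in the Fabp4 and 1355 CPM in the matrix cells. Mki67 was at 239 and 289 CPM. Cdkn1c was low in both, at 6.37 and 24.0 CPM, against 93.1 and 185 CPM in non-cycling cells chosen by the same limits.

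The remaining 26 cells of ABL replicate 2 lay between these in most genes, with 289 CPM of Fabp4, 767 CPM of Cxcl12, 10238 CPM of Col1a1, 439 CPM of Fmod and 152 CPM of Tnn. They held more Acta2 (667 CPM) than the Fabp4 (70.1 CPM) and matrix cells (77.3 CPM).

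To set cycling cells beside non-cycling cells of more similar kind, cells with a Tnn UMI were compared in ABL replicate 2 (45 cycling and 556 non-cycling). This is 1 library and has no test. Matrix genes moved in both directions. Tnn, Postn, Acan, Fmod and Sox9 differed by a log2 ratio of 0.48, 0.49, 0.58, 0.05 and -0.05, and Prg4, Hapln1 and Col2a1 were higher (1.29, 1.02 and 0.97). Single cells weigh on Prg4 and Col2a1. Over all 77 cycling cells of this library, 1 cell held 66.1% of the Col2a1 UMIs and 1 cell held 42.5% of the Prg4 UMIs. The ratios in Tnn cells were not computed without such cells, so their direction may rest on them. Cilp (-2.15), Thbs4 (-1.80), Comp (-1.37), Ogn (-1.01), Dcn (-0.92) and Aspn (-0.70) were lower. Osteocalcin (-6.31), Mfap4 (-5.36), Apod (-4.67), Sfrp4 (-4.22), Cdkn1c (-2.64), Clec3b (-2.26), Gas6 (-2.21), Mmp13 (-1.98), Thy1 (-1.92) and Igf1 (-1.76) were lower in cycling cells, and Cdkn2c (2.81) was higher. The genes from osteocalcin to Cdkn2c had the same direction in the comparison of all cells. That comparison includes these same cells, so the agreement is not independent. Prg4 was lower over all cycling cells of this library (1724 against 3779 CPM).

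With the rule applied at full depth, the share of cycling cells differed between kinds of mesenchymal cells in ABL replicate 2. Among cells with an Adipoq or Lepr UMI at 2700 UMIs, 3 of 331 were cycling (0.906%, interval 0.187 to 2.63). Among cells with a Tnn UMI these were 31 of 480 (6.46%, 4.43 to 9.04), among cells with cartilage genes 23 of 295 (7.80%, 5.01 to 11.5), and among cells with at least 5 Prg4 UMIs 9 of 161 (5.59%). Among cells with Ifitm5 and Ibsp they were 6 of 449 (1.34%). The median depth of the cells moved with these shares, from 7728 UMIs in the Adipoq or Lepr cells to 15607 in the Tnn cells.

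When the rule itself was applied at 2700 UMIs per cell, 1 of 246 Adipoq or Lepr cells (0.407%, 0.0103 to 2.24) and 6 of 258 Tnn cells (2.33%, 0.858 to 4.99) were cycling, and these intervals overlap. With the rule applied without thinning, 4 of 415 Adipoq or Lepr cells (0.964%) of ABL replicate 1 were cycling. None of its 12 Tnn cells was, which allows a share of up to 25%. Cycling cells were 12 of its 389 cells with Ifitm5 and Ibsp (3.08%), 3 of 24 with cartilage genes (12.5%) and 1 of 2 with Prg4. In the contralateral femurs, 3 of 885 (0.339%) and 2 of 1836 (0.109%) Adipoq or Lepr cells were cycling.

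The reporter was carried by most cycling cells. At 2700 UMIs, a tdTomato UMI was found in 16 of 20 (80.0%) and 64 of 77 (83.1%) cycling cells of the ablated femurs, against 94.4% and 90.9% of non-cycling and 20% and 46.3% of hematopoietic cells. The level was 1118 and 1314 CPM in cycling and 1741 and 1584 CPM in non-cycling cells, and the difference was not called (-0.50, adjusted p = 0.369).

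RNA of blood cells was present in some cycling cells and moved with several results. A cell was counted as carrying it when at least 0.2% of its UMIs came from the erythroid or the lymphoid list or at least 3% from the myeloid list, limits set after the values were seen. This held for 5 of 20 cycling cells in ABL replicate 1 (8 of 357 non-cycling), none of 77 in ABL replicate 2 (1 of 1242), 1 of 4 in CONT replicate 1 and 1 of 2 in CONT replicate 2. In ABL replicate 1, Car1, a carbonic anhydrase of early erythroid cells, was at 547 against 7.02 CPM, and cells with 151 and 59 Car1 UMIs held nearly all of it. Another cell had 28.6% myeloid UMIs and was called a doublet, and another had 15 UMIs of Igll1, made by B-cell precursors.

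No Car1 UMI was seen in cycling cells of ABL replicate 2, although the joint fit called Car1 (5.59, adjusted p = 0.0127). Of the 12 myeloid and 5 lymphoid genes tested none was called. The myeloid list summed to 22763 against 10176 CPM in ABL replicate 1 and to 84.3 against 157 CPM in ABL replicate 2, where 3 of its genes had no UMI. Without the cells with blood RNA, 9 of 12 reticular genes still fell. Of 61 genes followed, 7 lost their call without them, and the osteoblast genes were no longer called, as given above.

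The 6 cycling cells of the contralateral femurs were too few for a test across genes and are described one by one. Of the 4 in CONT replicate 1, 3 were called doublets by Scrublet and 1 of these had 22.8% myeloid UMIs, and S100a8, a neutrophil gene, was at 18700.2 CPM in the 4 against 3838 CPM in non-cycling cells, with 84.2% of it in 1 cell and 3700.1 CPM without that cell. In CONT replicate 2, 1 cell had 69241 UMIs, all 6 cycle genes, 120 UMIs of Mki67 and 80 of Car1, and the other had 3 cycle genes and 4 Car1 UMIs. Scrublet called only 1 of 2397 cells in that library and is not informative there.

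Reticular RNA was higher in these cells than in cycling cells of the ablated femurs. Cxcl12 was at 10691 and 4648 CPM in the cycling cells of CONT replicates 1 and 2, against 16221 and 17023 CPM in their non-cycling cells and 1136 and 306 CPM in cycling cells of the ablated femurs. Without the cell richest in it, Cxcl12 was at 8254 CPM in CONT replicate 1 and, in the 1 cell then left, at 15293 CPM in CONT replicate 2. The reticular list summed to 21246 and 10423 CPM in contralateral and to 2715 and 1526 CPM in ablated cycling cells, a log2 ratio of -2.97 in replicate 1 and -2.77 in replicate 2. In droplets with at most 300 UMIs, which hold free RNA, the list was at 11116 and 22543 CPM in the contralateral and at 11047 and 4638 CPM in the ablated libraries, so the cycling cells of CONT replicate 2 and of both ABL libraries were below the free RNA of their own library. Col1a2 was at 950.3 and 359 CPM in contralateral and 6854 and 12242 CPM in ablated cycling cells. Tnn and Acan had no UMI in any of the 6. Cycling hematopoietic cells, chosen by a Ptprc UMI and no Col1a2 UMI, numbered 180 of 843 and 48 of 220 in the contralateral femurs, more than the 4 and 2 cycling mesenchymal cells.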

How the data were processed

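Cxcl12CE-tdTomato+ cells of contralateral and ablated femurs (2 libraries each) were profiled by droplet single cell RNA-seq. The authors aligned reads to mm10 with transgene sequences added and deposited raw UMI counts for all barcodes, made with Cell Ranger (3.0.0 for the v3 libraries per the file headers, with the version for v2 not given in the sources used here). The submitters' processing notes also name Seurat.

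Barcodes with at least 500 genes, at most 20% mitochondrial UMIs and at least 2700 UMIs (v2), or 1000 genes, 15% and 4000 UMIs (v3), were taken as cells. The 2 libraries with at least 10 cycling cells were tested in edgeR 4.0.16 (R 4.3.3, TMM normalization, default filter on low counts) on counts summed over cycling and non-cycling cells, with the library as a block. This block was used because both sums come from the same library, and their deviations correlated across genes (r = 0.634). On simulated data of this design (10148 genes), 154 of 200 genes given a log2 change of 2 passed the threshold, and 2.53% of all calls fell on unchanged genes. Levels are CPM with 95% exact Poisson intervals from scipy 1.17.1. Doublets were called with Scrublet (scanpy 1.11.5) and not removed. Motifs were searched on both strands of RefSeq promoters, and gene coordinates are those of GENCODE on GRCm38.

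The 103 cells, the 22 lists (255 genes) and the tests were chosen with earlier results of these data known. Named genes are list members and, among genes past the threshold, outside the cycle lists, changed alike in both libraries and at 50 CPM or more on average, the 10 largest rises and 10 largest falls. Sets without blood RNA, without Adipoq or Lepr cells, and of Tnn cells, were chosen after seeing the data. Alternatives also changed the number of cycle genes, filters, counterpart, depth, normalization, block and tool (DESeq2 1.42.0).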

Additional observations from a re-analysis of the deposited data

How the results depend on the processing

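Counts of genes called moved with the replicate block, the number of cycle genes and the filter. With no replicate block (here the library, which is the replicate number), 0 genes were higher and 0 lower in edgeR, against 395 and 299 with it, although 1090 genes had an unadjusted p under 0.05. Requiring 2 of the 6 cycle genes gave 259 higher and 64 lower, no filter on low counts 607 and 847, a counterpart with 0 to 2 cycle genes 605 lower, and DESeq2 191 lower. For cells with at least 2 of 6 genes compared between conditions, 28 genes were called with the replicate block and 0 without. Of single genes, Car1 was at -0.035 without replicate 1 and 5.03 without replicate 2, Kera at -1.76 and 0 and at 0.21 in DESeq2, and Ebf3 at 0.20 against deep cells.

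The summed reticular list (log2 ratio -2.42) moved to -1.51 with 2 of 6 genes, -1.11 against deep cells and -0.44 without Adipoq or Lepr cells, and ran from -1.86 to -2.99 with either replicate left out. The osteoblast list (-0.80) moved to -0.45 with 2 and -1.30 with 4 of 6 genes, -0.0095 for cells chosen after thinning, -1.80 against deep cells, -0.53 without blood RNA, -2.83 without Adipoq or Lepr cells, -0.28 in Tnn cells and -0.29 as a mean over cells, with -0.74 and -0.85 leaving out a replicate. The cartilage list (0.74) was at 1.94 and -0.46 with a replicate left out, so its direction rested on ABL replicate 1. Shares of cells, as cycling minus non-cycling in percentage points, went from -40.5 to -11.5 without thinning for Adipoq or Lepr, from 4.31 to -7.04 against deep cells for Tnn, from 11.8 to 10.3 at 2000 UMIs, 25.7 without thinning and 3.12 against deep cells for cartilage genes, from 2.69 to -0.84 against deep cells for Prg4, and from -18.8 to -11.0 against deep cells for osteoblast genes. Leaving out a replicate gave -20.6 and -60.4, -1.68 and 10.3, 11.4 and 12.2, 0.66 and 4.72, and -13.4 and -24.2. The ABL minus CONT share of cycling cells (4.16 points) stayed between 1.70 and 6.44. The causes of these moves were not tested.

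Of 62 genes followed, 62 of 62 lost their call with no replicate block, 39 of 59 with 2 of 6 cycle genes, 12 of 57 against deep cells, 9 of 62 in DESeq2 and 7 of 61 without blood RNA. A count of calls could not be had with a replicate left out, since 1 pair has no residual degree of freedom, nor after thinning, without Adipoq or Lepr cells or in Tnn cells, where ABL replicate 1 kept under 10 cycling cells. Leaving out every cell with a UMI of any hematopoietic list gene gave no value, since no mesenchymal cell of the v2 libraries was left. Depth limits low genes most, since 20 cells of ABL replicate 1 held 385629 UMIs.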

Other observations

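Cells with at least 2 of the 6 cycle genes numbered 10 or more in every library and were compared between conditions. In the contralateral libraries 19 of 23 and 8 of 10 of them had exactly 2 of the genes, and those had 532 and 343 CPM of the mitosis list against 544 and 281 CPM in non-cycling cells, so most contralateral cells in this comparison are not shown to be cycling. Of 6034 genes tested in edgeR with the replicate as a block, 23 were higher and 5 lower in ablated femurs, and with no block none was called (873 and 686 genes had an unadjusted p under 0.05).

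Endothelial and megakaryocyte lists were low in the ablated femurs, whereas lymphoid and blood progenitor lists were higher in cycling cells of ABL replicate 1. Erythroid and myeloid RNA of that library is given above. The endothelial list summed to 10.4 CPM in cycling and 7.02 CPM in non-cycling cells of ABL replicate 1 and to 19.1 and 31.1 CPM in ABL replicate 2. The megakaryocyte list summed to 23.3 and 27.7 CPM and to 10.4 and 15 CPM. The lymphoid list was at 192 and 48.4 CPM in ABL replicate 1 and at 1.16 and 1.79 CPM in ABL replicate 2. The list of blood progenitors was at 207 and 117 CPM and at 15.6 and 82.3 CPM, and only Cd34 of its 4 genes tested was called. In droplets with at most 300 UMIs, the 6 cycle genes together were at 660 and 286 CPM in the contralateral and 472 and 250 CPM in the ablated libraries of replicates 1 and 2.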
